A study of Mus musculus and Homo sapiens with 4 samples.

Results

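Immediate early response genes are genes whose transcripts appear within minutes of a growth factor, serum or stress signal, without new protein synthesis. A list of 31 such genes was followed in 2 tumour cell lines in which Merm1 had been knocked down. Members were found by gene symbol on each array platform, with CCN1 also accepted as CYR61 and CCN2 as CTGF, and the rule uses no measured value. The list itself was chosen with earlier results of these data known. All 31 were found among 18193 named genes on the mouse array, on 56 probe sets, and 30 among 19773 named genes on the human array, on 65 probe sets. EGR2 was not analysed here on the human array.

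The signal reaches these genes through factors that are already present in the resting cell. SRF with its cofactors binds CArG boxes, CREB-like factors bind cyclic AMP response elements, and both then recruit the transcription machinery. Many of the products are transcription factors themselves, namely the FOS and JUN proteins that pair to form AP-1, the EGR zinc finger proteins, the KLF factors, the NR4A orphan nuclear receptors and MYC. Others end the response, such as the DUSP phosphatases that inactivate MAP kinases and the ZFP36 proteins that destroy AU-rich mRNAs. The transcripts are short-lived as a rule, so their level in growing tumour cells follows recent signalling and mRNA decay.

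Expression was measured on 4 arrays, 1 for each group. LM8 cells, a mouse osteosarcoma line, carried either a retrovirus with a short hairpin RNA against mouse Merm1/Wbscr22 or the control retrovirus of the same type, pSIREN-RetroQ. A375M cells, a human melanoma line, carried either the human Merm1/Wbscr22 hairpin virus or the control virus. Merm1 is the older name of BUD23, a methyltransferase of 18S ribosomal RNA. All 4 lines were stably infected and grown in medium with serum, and no acute stimulus is described in the labels. LM8 was kept in MEM and A375M in DMEM, and 1 hairpin construct is named for each species. The labels do not tell whether a line was 1 clone or a pool, or how long after feeding the cells were lysed. Values are log2 RMA expression values, and differences are always taken as knock-down minus control within a cell line, so a difference of 1 means a doubled measured signal. Because each group was 1 array, no difference has a replicate check, a standard error or a p-value. The median SD between the probe sets of 1 gene, 0.12 in LM8 over 5313 genes and 0.071 in A375M over 6265, was used as a technical gauge that leaves out the spread between cultures.

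The target transcript was lower in each array labelled knock-down, at 22.9% of the control level in LM8 and 20.04% on the brighter probe set in A375M. The osteoblast genes tested were expressed in LM8, with 7 of 7 above the array median in both arrays, Sp7, Alpl and Ibsp among them. The list held 10 genes, and 3 were not analysed on the mouse array. In A375M 6 of 9 osteoblast genes also lay above the median in both arrays, SPARC and COL1A2 among them, while SP7, ALPL and IBSP lay below it. Of 9 listed melanocyte markers 8 were analysed in A375M, and all 8 lay above the array median, among them SOX10, MITF and the pigment genes MLANA, PMEL, TYR and TYRP1. The pigment genes were dim, with MLANA at 5.19 in the knock-down and 4.84 in the control array and TYR at 6.04 in both. All of them lay below the A375M 70th percentiles of 6.43 in the knock-down and 6.44 in the control array. Leukocyte markers lay above the median in both arrays in 2 of 6 cases in LM8 and 2 of 5 in A375M. Summed on the linear scale, the osteoblast list came to 51611 in the LM8 knock-down array and 47950 in the control array, and the melanocyte list to 7296 in the A375M knock-down array and 6856 in the control array. Of 9 melanocyte markers on the mouse array 4 were kept in LM8, and all 4 were higher, with a median difference of 0.21 and a summed level of the whole list of 1953 in the knock-down array and 1539 in the control array. Among these S100b, which encodes a calcium-binding protein, had 9.01 in the LM8 knock-down array and 8.28 in the control array, a difference of 0.73 or 1.66-fold, and 0.91 on its other probe set. The pigment genes Mlana, Pmel, Tyr and Tyrp1 lay below the median in both LM8 arrays. The part of these markers in the results that follow was not tested. The A375M pair repeated the identical number for 45.4% of its probe sets and the LM8 pair for 0.705%, so A375M differences of exactly 0 recur below, with an origin that the labels leave unstated. Different genes could also share 1 exact value in an A375M array. In the control array 6.13311 stood for ARC and a JUN probe set, and 8.97972 for another JUN probe set and a KLF6 probe set. The effect of such ties on small A375M differences was not tested.

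The upstream sequences of 5 members are shown because their genes are described with LM8 differences of both signs and they differ in the elements they hold. They are the 250 bases before the annotated start in RefSeq, mouse build GRCm38.p6, read 5′ to 3′ on the strand of the gene. Fos is at chr12:85473640-85473889 on the plus strand, Ier3 at chr17:35821463-35821712 on the plus strand, Ccn1 at chr3:145649986-145650235 on the minus strand, Klf4 at chr4:55532476-55532725 on the minus strand and Srf at chr17:46556163-46556412 on the minus strand. Capitals mark matches, on either strand, to the motifs named after the sequences.
Fos: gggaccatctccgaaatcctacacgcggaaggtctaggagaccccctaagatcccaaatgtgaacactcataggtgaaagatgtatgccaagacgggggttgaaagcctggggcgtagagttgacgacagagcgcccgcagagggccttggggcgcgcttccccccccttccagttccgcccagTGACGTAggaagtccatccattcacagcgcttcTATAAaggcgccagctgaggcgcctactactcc
Ier3: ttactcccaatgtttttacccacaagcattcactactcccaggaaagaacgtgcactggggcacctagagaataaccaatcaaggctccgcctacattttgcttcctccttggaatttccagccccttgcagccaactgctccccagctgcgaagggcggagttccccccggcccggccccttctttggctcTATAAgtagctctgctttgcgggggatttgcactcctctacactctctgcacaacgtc
Ccn1: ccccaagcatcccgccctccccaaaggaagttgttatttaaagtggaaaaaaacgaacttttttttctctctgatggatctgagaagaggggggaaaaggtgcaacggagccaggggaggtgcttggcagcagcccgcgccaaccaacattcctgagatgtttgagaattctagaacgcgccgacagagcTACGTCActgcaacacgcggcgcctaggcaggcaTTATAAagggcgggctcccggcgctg
Klf4: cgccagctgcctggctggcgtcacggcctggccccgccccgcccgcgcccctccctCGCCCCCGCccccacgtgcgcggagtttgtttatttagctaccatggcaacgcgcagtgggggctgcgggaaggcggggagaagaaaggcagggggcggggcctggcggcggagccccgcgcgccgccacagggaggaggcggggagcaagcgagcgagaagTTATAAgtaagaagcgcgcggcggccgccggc
Srf: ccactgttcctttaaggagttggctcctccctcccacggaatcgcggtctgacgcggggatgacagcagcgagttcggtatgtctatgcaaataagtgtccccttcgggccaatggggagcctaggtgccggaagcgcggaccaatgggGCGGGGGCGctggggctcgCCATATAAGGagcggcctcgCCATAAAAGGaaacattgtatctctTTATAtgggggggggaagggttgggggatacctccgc

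The motifs searched were the cyclic AMP response element TGACGTCA, its variant TGACGTA, the AP-1 element TGACTCA, the EGR sites GCGTGGGCG and GCGGGGGCG, the CArG box and the letters TATAA, all on both strands. TGACGTA and TATAA were added after the sequences had been read. Positions count back from -1, the base before the annotated start. Of the 31 members 22 matched the promoter table. The others were not searched, so a member not named with a motif may have had no window. Among the sequences shown, Fos held TGACGTA at -66 to -60 and Ccn1 held it on the other strand at -60 to -54. The Nr4a3 window, not shown, held it at -231 to -225. Of all 27025 genes with such a window, 1.27% held this word, and 3 of 22 members did. GCGGGGGCG was in 8 of 22 members, namely Dusp2, Fosb, Fosl2, Klf2, Klf4, Nr4a1, Srf and Zfp36, and in 2.93% of all genes. Windows of members were richer in G and C, with a median of 64.8% against 52.8% over all genes.

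CArG boxes were in 3 of 22 members, Egr2, Srf and Zfp36, and in 1.62% of all genes. Srf held a pair of them, at -82 to -73 and -62 to -53, the first of which contains TATAA, and a pair of those in Egr2 overlap each other. The word TGACGTCA was in Dusp1 only among the members and in 1.77% of all genes. TGACTCA was in 0 of 22 members and 5.16% of all genes, and GCGTGGGCG in 0 of 22 and 0.622%. TATAA was in 10 of 22 members and 25.8% of all genes, with Fos at -33 to -29, Klf4 at -32 to -28 and -31 to -27, where both strands match, and Ier3 at -58 to -54. On the gene strand between -45 and -16, where a TATA box usually lies, it was in 6 of 22 members and 4.67% of all genes. These are matches of letters in a short window and say nothing of binding, and elements further upstream were not searched.

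In LM8 the knock-down array had less transcript of 3 signal-induced genes, Egr1, Fos and Ier3, and less of Ccn1, Klf4 and Zfp36l1 by smaller amounts. Klf10 and Srf were higher. Of the 31 members 27 had a level above the array median in at least 1 array and were kept, 17 of them lower and 10 higher, with a median difference of -0.016, beside 46.01% lower and a median of 0.015 over all 11646 kept genes. The 3 named first were lower by at least 1.5-fold, and 1.31% of all kept genes were. Only Egr1 was lower by at least 2-fold, as were 0.318% of all kept genes. No member was higher by 1.5-fold or by 2-fold, against 1.16% and 0.155% of all kept genes. Because the list was chosen with earlier results known, these shares describe it and are no independent test.

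Egr1, a zinc finger factor that is a standard readout of mitogen signalling, had a log2 value of 6.36 in the LM8 knock-down array against 7.59 in the control array. The difference of -1.23, or 2.34-fold lower, left 42.7% of the control signal and ranked 21 from the lowest among the 11646 kept genes. Both values lay above the array medians of 5.28 in the knock-down and 5.29 in the control array. The gene has 1 probe set on this array, so no second measurement of it exists here.

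Fos, the partner of the JUN proteins in AP-1, had a value of 6.81 in the knock-down array and 7.74 in the control array. It was 1.91-fold lower, with a difference of -0.93 and rank 50 from the lowest. Ier3, which encodes a short protein of the survival and stress response, had 10.49 in the knock-down array and 11.41 in the control array. It was 1.89-fold lower, with a difference of -0.92 and rank 52 from the lowest. Fos lay below the 70th percentile of 7.44 in the knock-down array and above that of 7.43 in the control array, Ier3 lay above it in both, and each gene rests on 1 probe set.

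**Figure D1:**
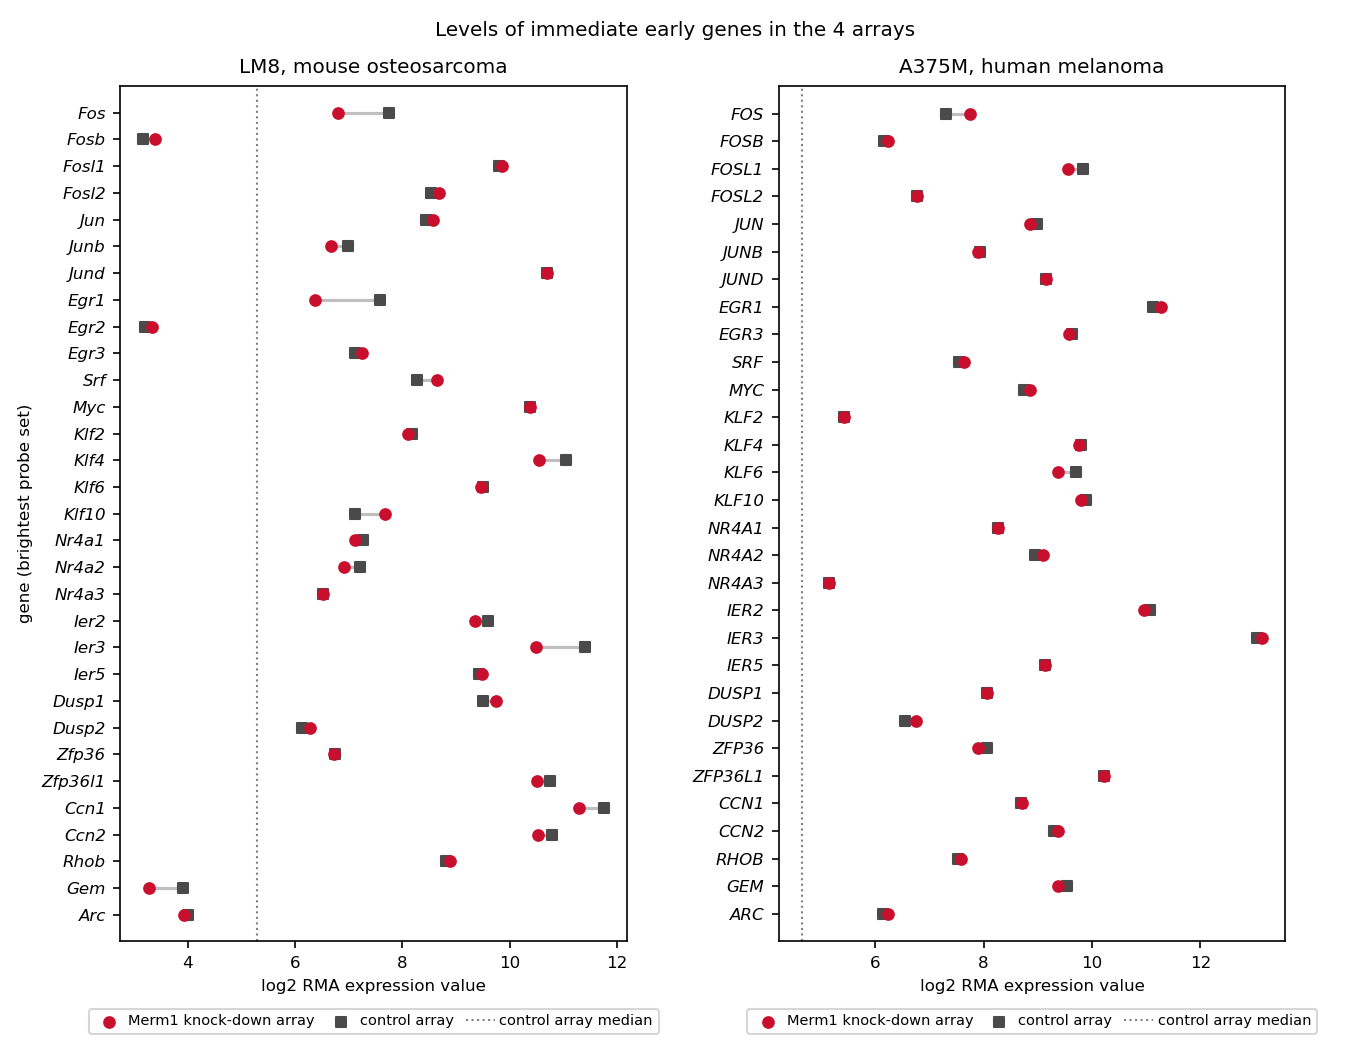
Log2 RMA value (horizontal axis) of the brightest probe set of each immediate early gene in the knock-down array (red circles) and the control array (grey squares) of LM8 (left) and A375M (right), with the control array median dotted. Egr1, Fos and Ier3 have differences of -1.23, -0.93 and -0.92 in LM8, while in many other rows the symbols overlap. Values of different probe sets are not comparable with each other.

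Of the other AP-1 genes in LM8, Fosl1 is the FOS-related partner common in invasive cells. It had 9.86 in the knock-down array and 9.81 in the control array on its brighter probe set, a difference of 0.054. Its other probe set differed by -0.062. Fosl2 differed by 0.15 on its brighter probe set and by -0.20 on the other. Jun was higher on both of its probe sets, by 0.13 with values of 8.57 in the knock-down and 8.44 in the control array on the brighter, and by 0.21 on the other. The directions in this family were therefore mixed, 3 lower and 3 higher among 6 kept by their brightest probe sets. Jund was counted as lower at -0.0008. Junb, which often restrains Jun, was lower as Fos was, with 6.67 in the knock-down array and 6.98 in the control array, a difference of -0.32. Jund, the constitutive member, read 10.70 in both arrays on its bright probe set, and its dim one differed by -0.49. Fosb lay below the array median at 3.39 in the knock-down and 3.18 in the control array.

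Of the other EGR genes, Egr3 differed by 0.13 on its brighter probe set and by -0.33 on one below the array median. Egr2, a factor of myelinating and immune cells, was below the array median in both arrays with differences of 0.073 and 0.14. Egr1 was thus the only kept EGR gene with a difference beyond 1.5-fold. Members with the word GCGGGGGCG in the window searched had differences of both signs, with Klf4 at -0.49, Srf at 0.36 and Zfp36 at -0.011.

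Srf, the factor that drives many of these genes, had 8.64 in the LM8 knock-down array and 8.28 in the control array on its brightest probe set, a difference of 0.36 or 1.28-fold. Its other probe set read 8.46 in the knock-down and 8.42 in the control array, a difference of 0.035. The probe sets thus disagree in size, and the brighter is of the type that can share probes between transcripts. Myc, the growth factor-induced regulator of ribosome synthesis, differed by -0.014 between 10.37 in the knock-down and 10.39 in the control array.

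Among the KLF factors, Klf4, which can arrest growth and maintain stem cell states, was lower on both probe sets. It had 10.56 in the knock-down array and 11.04 in the control array on the brighter one, a difference of -0.49, and -0.39 on the other. Klf10, a factor induced by TGF-beta, went the other way with 7.68 in the knock-down and 7.12 in the control array. Its difference of 0.56, or 1.47-fold, was just short of the 1.5-fold threshold and ranked 162 from the highest. Klf6 had 5 probe sets from -0.45 to 0.11, 3 of them higher, and Klf2 differed by -0.077.

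The NR4A receptors, orphan nuclear receptors induced by calcium and cyclic AMP signals, all had negative differences on their brightest probe sets in LM8. Over all kept LM8 genes 46.0% were lower. Nr4a2 was lower on 5 of 6 probe sets, and the brightest read 6.92 in the knock-down array and 7.20 in the control array, a difference of -0.29. The mean over the 6 was -0.11, within the spread between probe sets of 1 gene. Nr4a1 differed by -0.14 and Nr4a3 by -0.016, with another Nr4a3 probe set at 0.13. Of 10 NR4A probe sets 8 were lower, though several by less than that spread. Those of Nr4a2 made up 6 of the 10 and are not separate genes.

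Of the feedback genes, Dusp1, which encodes a nuclear phosphatase of stress kinases, had 9.74 in the LM8 knock-down array and 9.50 in the control array, a difference of 0.24. Dusp2 differed by 0.15. Zfp36l1, an mRNA decay factor, was lower on both probe sets with differences of -0.25 and -0.43, and had 10.50 in the knock-down and 10.75 in the control array on the brighter probe set, while its relative Zfp36 differed by -0.011, within the spread between probe sets. Ier2, a nuclear protein gene, differed by -0.24, and Ier5, a regulator of the heat shock factor, by 0.057 on the brightest of 3 probe sets.

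Of the secreted and cytoskeletal products, Ccn1 and Ccn2 encode matrix-bound proteins that signal through integrins and are standard targets of YAP and TEAD. Ccn1 was lower on all 4 LM8 probe sets, with differences from -0.46 to -0.79. Its brightest read 11.30 in the knock-down array and 11.76 in the control array, and the dimmest 7.83 in the knock-down and 8.62 in the control array. The largest of these differences came from the dimmer probe sets, and the mean over the 4 was -0.64, beyond 1.5-fold. Ccn2 had 10.52 in the knock-down and 10.78 in the control array, a difference of -0.26. Rhob, a small GTPase of endosomes and actin, differed by 0.087. Gem, another GTPase, and Arc, a gene of neuronal synapses, lay below the array median in both arrays, with Gem at 3.28 in the knock-down and 3.92 in the control array, a difference of -0.65, and Arc at a difference of -0.079.

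**Figure D2:**
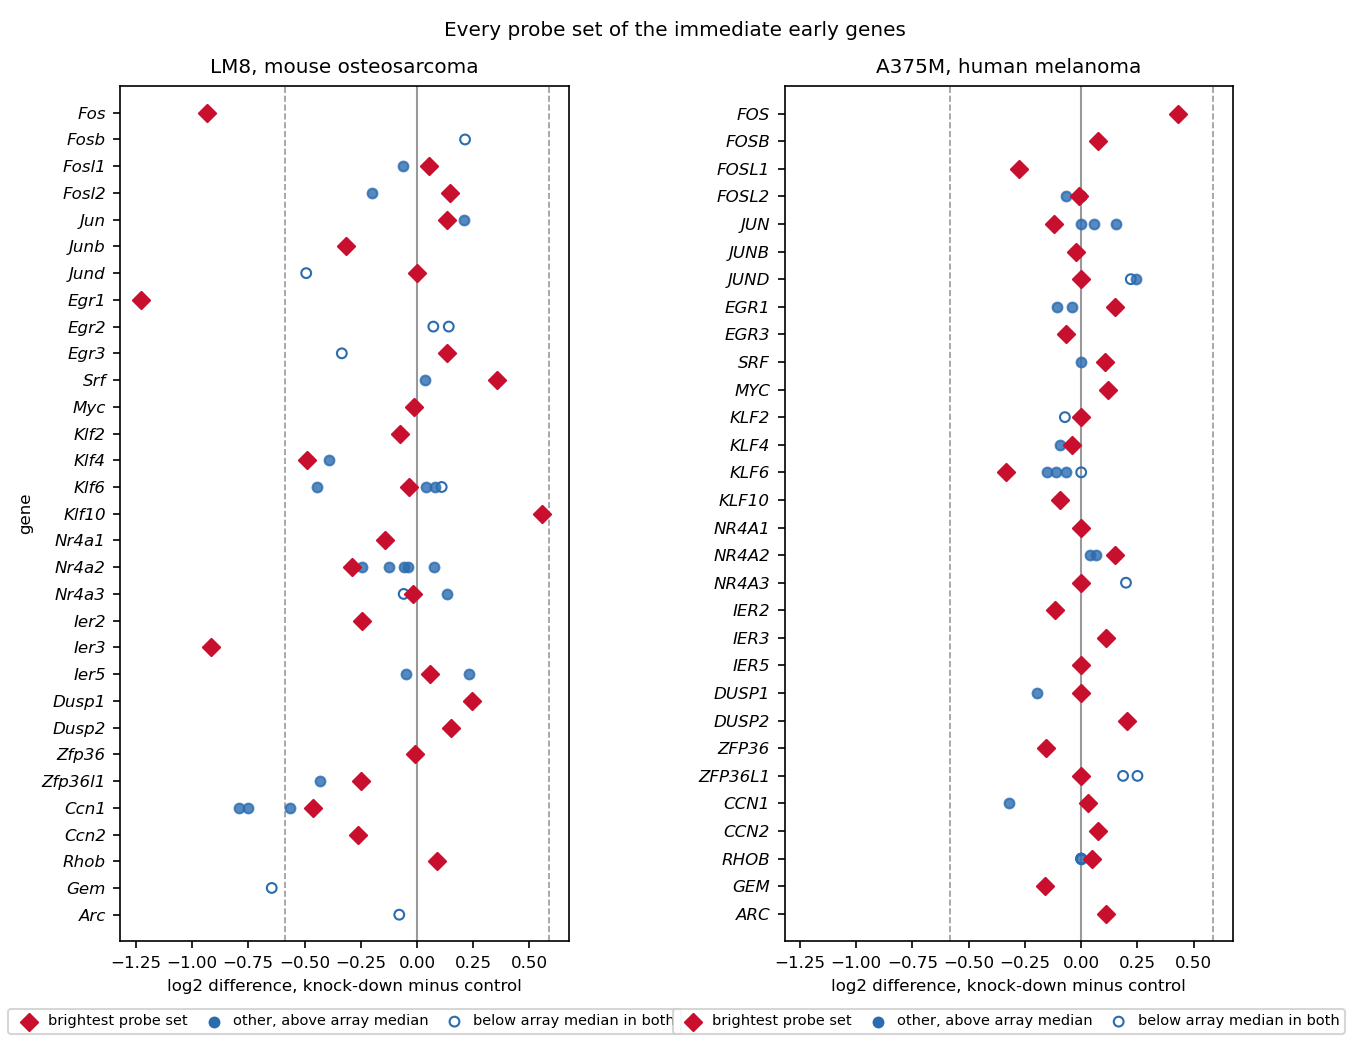
Log2 difference, knock-down minus control, of every probe set of the immediate early genes in LM8 (left) and A375M (right). Diamonds are the brightest probe set, filled circles other probe sets above the array median, open circles those below it in both arrays, and a gene whose brightest probe set is below the median has open circles only. Dashed lines mark 1.5-fold. In LM8 all 4 Ccn1 probe sets are left of 0, while in A375M 23 of 65 probe sets lie exactly at 0.

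In A375M the same genes did not differ by as much as 1.5-fold in either direction. All 30 members measured were kept, 11 lower, 12 higher and 7 identical, with a median of 0. Over all 13244 kept genes 40.3% were lower, 29.0% higher and 30.8% identical. The counts of 0 members stand beside 0.37% of kept genes lower and 0.378% higher by 1.5-fold, and 0.0453% lower and 0.0831% higher by 2-fold. At those rates a list of this length holds few or no such genes.

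FOS was the member with the highest difference in A375M, with 7.74 in the knock-down array and 7.31 in the control array. It was 1.35-fold higher, a difference of 0.43, rank 129 from the highest. EGR1, bright in this line, had 11.27 in the knock-down and 11.12 in the control array, a difference of 0.15, and its other 2 probe sets differed by -0.11 and -0.040. The direction for EGR1 therefore depends on the probe set. IER3 had 13.14 in the knock-down and 13.03 in the control array, a difference of 0.11.

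The lowest A375M differences were those of KLF6, a factor that can restrain growth, and FOSL1. KLF6 had 9.37 in the knock-down array and 9.71 in the control array on its brightest probe set, a difference of -0.33. It was lower on 4 of 5 probe sets, the other 3 of these with differences from -0.15 to -0.068, and identical on a dim one. FOSL1 had 9.55 in the knock-down and 9.83 in the control array, a difference of -0.28 on 1 probe set. These are the members furthest below 0, with ranks 328 and 545 from the lowest of all kept genes.

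DUSP2 was at 6.74 in the knock-down and 6.54 in the control array, a difference of 0.20, and NR4A2 was higher on all 3 probe sets by 0.039 to 0.15. MYC differed by 0.12, ARC by 0.11, SRF by 0.10, FOSB by 0.077, CCN2 by 0.076 and RHOB by 0.049. The smallest of these lie within the A375M spread between probe sets. GEM, above the array median in this line, had 9.38 in the knock-down and 9.54 in the control array, a difference of -0.16. ZFP36 differed by -0.16, IER2 by -0.12, KLF10 by -0.095, EGR3 by -0.067, KLF4 by -0.039, JUNB by -0.023 and FOSL2 by -0.0080.

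Some A375M members have no settled direction. JUN differed by -0.12 on its brightest probe set and by 0.15, 0.056 and 0 on the others, and CCN1 by 0.029 on the brighter and -0.32 on the dimmer of its 2 probe sets. Identical values were found for the brightest probe set of JUND, IER5, DUSP1, KLF2, NR4A1, NR4A3 and ZFP36L1, at levels between 5.15 for NR4A3 and 10.21 for ZFP36L1. For DUSP1 another probe set differed by -0.20 and for JUND another by 0.24. An identical value here is a property of the deposited table and is no measurement of equal expression.

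**Figure D3:**
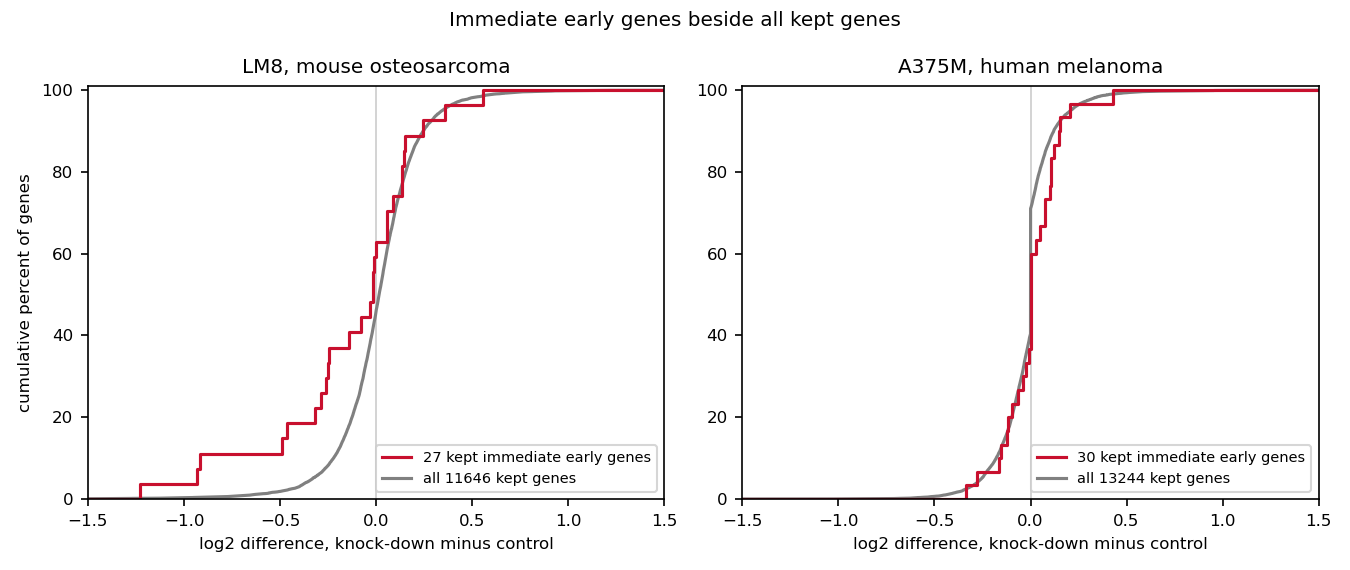
Cumulative percent of genes (vertical axis) by log2 difference, knock-down minus control (horizontal axis), for the kept immediate early genes (red) and all kept genes (grey) in LM8 (left) and A375M (right). In LM8 the red line runs above the grey one on the left, where 11 of 27 members are lower by more than the spread between probe sets, and in A375M both lines jump at 0.

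Read against the gauge of 0.12, 11 of 27 LM8 members were lower by more than it (40.7%), 7 were higher (25.9%) and 9 were within it (33.3%). Over all kept LM8 genes the shares were 21.4% lower, 26.2% higher and 52.3% within. In A375M, with a gauge of 0.071, 7 of 30 members were lower (23.3%), 10 higher (33.3%) and 13 within (43.3%). The shares over all kept genes there were 25.0% lower, 16.0% higher and 58.9% within. In LM8 the excess over all kept genes was thus on the lower side, and in A375M on the higher side. The A375M gauge was computed with the probe sets identical in both arrays included. The A375M shares within it hold 7 identical members and the 30.8% of kept genes that were identical. With identical probe sets left out, 12 of 24 kept A375M members were lower and 12 higher, and 62.0% of all 8924 kept genes were lower. The shares beyond the gauge were not computed in that setting. These shares describe 1 pair of arrays a line, for members chosen with earlier results known, and were not tested.

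In both lines together 27 members could be set side by side by symbol. Of these, 5 were lower in both lines, 3 were higher in both, 12 went opposite ways and 7 were identical in A375M. The opposite group was 44.4% of the members and 36.1% of all 8981 genes kept in both lines. In 7 of the 12 the LM8 difference was the lower one, Egr1, Fos and Ier3 among them. Pearson's r between the differences of the lines over the 27 genes was -0.45 and Spearman's rho -0.29, and r was -0.066 over the 24 genes left without Egr1, Fos and Ier3. Genes are not independent replicates, and over all 8981 genes r was 0.033. KLF4, IER2 and JUNB were among those lower in both lines, with LM8 differences of -0.49, -0.24 and -0.32 and A375M differences of -0.039, -0.12 and -0.023.

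**Figure D4:**
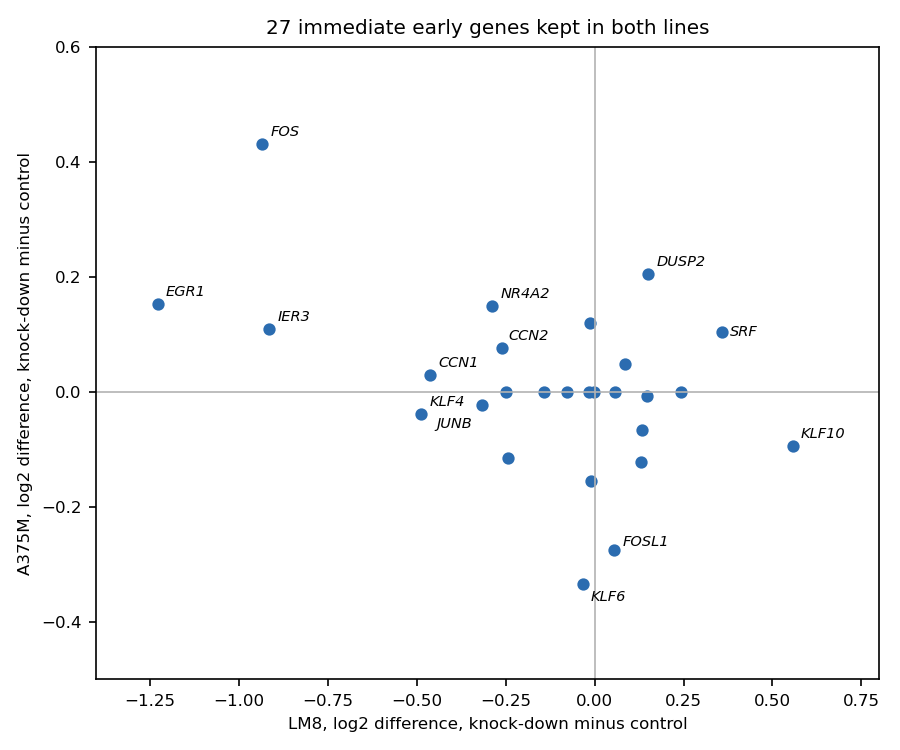
Log2 difference, knock-down minus control, in LM8 (horizontal axis) against A375M (vertical axis) for the 27 immediate early genes kept in both lines, with 1 point a gene and labels on the points furthest from 0. EGR1, FOS and IER3 are on the far left and above 0, at 0.15, 0.43 and 0.11 in A375M.

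The genes around the list were read in the same way. For comparison, 46.0% of all kept genes were lower in LM8 and 40.3% in A375M. Those lower by 1.5-fold were 1.31% in LM8 and 0.37% in A375M. Among other genes of the early response, 24 of 42 kept in LM8 were lower and 18 higher, with a median of -0.037. Bhlhe40, a hypoxia and stress-induced repressor of the clock, had 8.64 in the LM8 knock-down array and 9.61 in the control array, a difference of -0.97. Tnfaip3, which ends NF-kB signalling, had 6.14 in the knock-down and 7.02 in the control array, a difference of -0.89, though its other probe set differed by 0.11. They were the 2 genes of that list lower by 1.5-fold on the brightest probe set, and none was higher. In A375M 25 of 45 were lower and 11 higher with a median of -0.031. CXCL2, a neutrophil chemokine gene, at -0.70 and PTGS2, the inducible cyclooxygenase gene, at -0.60 were past 1.5-fold. Another of the 3 CXCL2 probe sets was identical in both arrays.

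Genes driven by YAP and TEAD make a list that includes Ccn1 and Ccn2. In LM8 13 of 14 were lower, with a list median of -0.19. Over all kept LM8 genes 46.0% were lower and 53.8% higher. Several of the 13 differed by less than the gauge of 0.12, among them Axl at -0.077 and Ptpn14 at -0.030. Nt5e differed by -0.55 on its brightest probe set and by 0.22 on another. The list counts were not tested. Ankrd1, a stretch-responsive nuclear cofactor gene, was the one past 1.5-fold on its brightest probe set. It had 7.42 in the knock-down array and 8.23 in the control array, a difference of -0.82, and -0.57 on its other probe set. In A375M 7 of 13 kept genes were lower, 2 higher and 4 identical, with a median of -0.085. ANKRD1 was dim there and identical in both arrays. By contrast 14 of 19 cytoskeletal targets of SRF and its cofactors were higher in LM8 and 5 lower, with a median of 0.11, Srf itself counted among them and Ankrd1 again the lowest. In A375M 3 of 15 of these were higher and 10 lower, with a median of -0.093. Over all kept A375M genes 29.0% were higher and 40.3% lower.

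**Figure D5:**
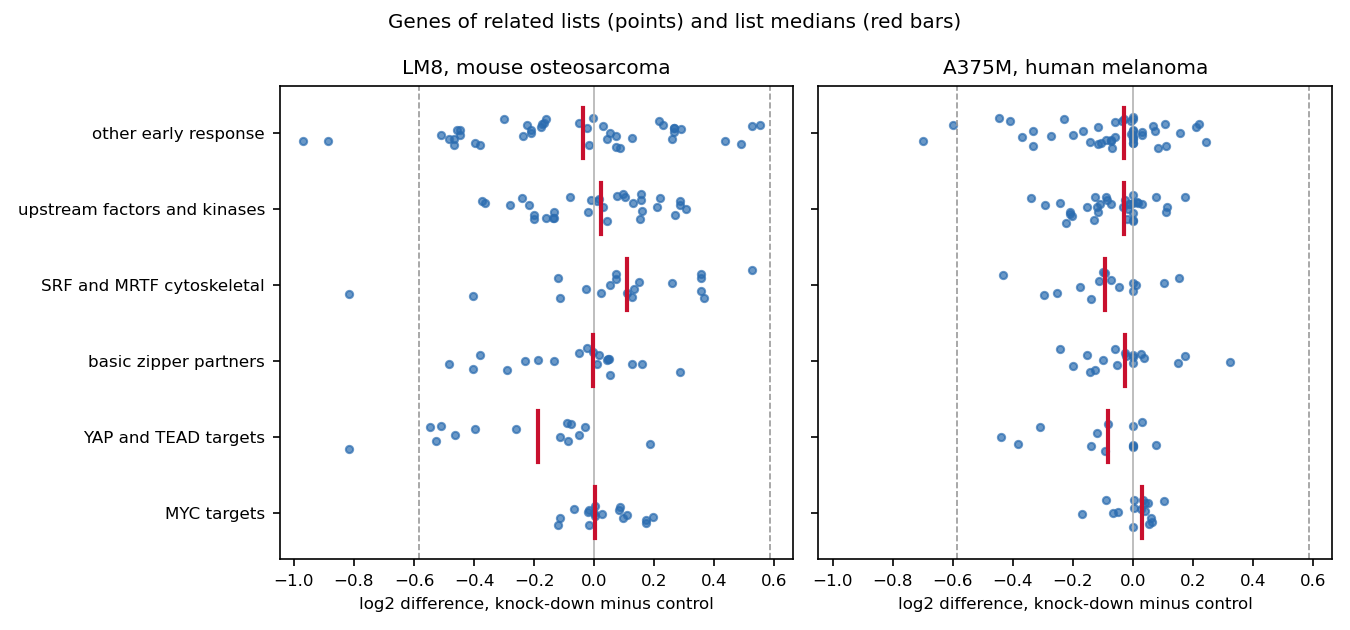
Log2 difference, knock-down minus control, of each kept gene of 6 related lists (points, spread vertically for sight) in LM8 (left) and A375M (right), with red bars at the list medians and dashed lines at 1.5-fold. In LM8 the median of the YAP and TEAD list is -0.19 and that of the SRF and MRTF cytoskeletal list 0.11, and in A375M they are -0.085 and -0.093.

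Measures of RNA and labelling were compared with these differences. In LM8 the 3′ minus 5′ difference of Gapdh control probe sets was -0.18 in the knock-down array and -0.18 in the control array, and that of actin 0.34 in the knock-down and 0.35 in the control array. Transcripts added before labelling had a median difference of 0.12 over 12 probe sets in LM8 and 0.0087 in A375M, and hybridisation controls -0.00045 in LM8 and 0.056 in A375M. In A375M the 3′ minus 5′ difference of actin was 0.995 in the knock-down array and 0.911 in the control array. Beside the lower LM8 members the labelling controls were thus higher in the knock-down array, and their part in the result was not tested. Time since feeding, cell density and the virus insertion were not tested either. In a bulk sample a lower value can mean fewer expressing cells or less transcript per cell, and these cannot be told apart.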

How the data were processed

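Total RNA of 4 infected cultures was hybridised to Affymetrix 3′ arrays, and titles gave each array its group. The authors deposited 1 log2 value for each probe set and array. The submitters' processing notes name RMA as the method, without a version. RMA corrects background and brings the probe intensities of arrays normalized together to 1 distribution, so it hides a shift shared by most genes. Which arrays were normalized together is not stated. The deposited values still differed slightly within a pair, with A375M medians of 4.67 in the knock-down and 4.64 in the control array.

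Gene names came from GEO's platform annotation, with probe sets of several symbols set aside. Each gene is represented by its brightest probe set, averaged over the pair of arrays. It was kept where that probe set passed the 50th percentile, control probe sets aside, in 1 array or both. Differences are knock-down minus control, counted at 1.5-fold and 2-fold. The members and lists were chosen with earlier results of these data known. The text names every member and, of the other lists, each kept gene past 1.5-fold. The upstream sequences are from RefSeq, GRCm38.p6. The scripts, which used pandas 2.3.3, numpy 2.4.6 and statsmodels 0.14.6, were tested on simulated data. Alternatives were other filters on low values, median centring, repeated quantile normalization, a loess curve, the mean of probe sets, exclusion of probe sets that may share probes (_x_at, _s_at) and 32 added before log2. After the values were seen, exclusion of probe sets identical in both arrays was added. The number of arrays limits the precision. No array was left out, since each group had 1 array.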

Additional observations from a re-analysis of the deposited data

Results flagged for a closer look

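For 7 members the LM8 and A375M differences had opposite signs and each exceeded the median SD between probe sets of a gene in its line. The gap between the lines, LM8 minus A375M, was not tested. It was -1.38 for EGR1 (-1.23 in LM8, 0.15 in A375M), -1.37 for FOS (-0.93 and 0.43) and -1.02 for IER3 (-0.92 and 0.11). The others were KLF10 at 0.65 (0.56 in LM8, -0.095 in A375M), NR4A2 at -0.44 (-0.29 and 0.15), CCN2 at -0.34 (-0.26 and 0.076) and JUN at 0.25 (0.13 and -0.12). In A375M the direction of EGR1 and of JUN differs between their probe sets. For NR4A2 in LM8 the mean over its probe sets was -0.11, smaller in size than the SD of 0.12, and for JUN in A375M it was 0.022. The A375M difference of CCN2, 0.076, was close to the SD of 0.071 and came to 0.046 with the arrays centred on their medians. That of KLF10 came to -0.056 with repeated quantile normalization, also within the SD.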

How the results depend on the processing

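The count of LM8 members lower by 1.5-fold, 3 in the main setting, was 3 or 4 under the filters on low values, the scalings, the probe set rules and 32 added, and 1 with the threshold at 2-fold. The fourth gene was Gem without the filter and Ccn1 with the mean of probe sets. The counts of LM8 members higher and of A375M members lower or higher were 0 under all these settings. The LM8 difference ranged from -1.23 to -0.98 for Egr1, from -0.93 to -0.77 for Fos, from -0.93 to -0.90 for Ier3 and from 0.035 to 0.37 for Srf, with the lowest value for Srf without the probe sets that may share probes. The list median ranged from -0.077 to -0.0049 in LM8 and from -0.030 to 0.051 in A375M. Centring the arrays on their medians gave the lowest A375M median, and repeated quantile normalization the highest. With the mean of probe sets the sign of 4 of 31 LM8 and 2 of 30 A375M member differences changed, CCN1 in A375M among them at -0.15, and EGR1 in A375M came to 0.0012. The cause was not tested. Single probe sets near the array median carry little signal over background. No paired analysis was possible because each group had 1 array.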

Other observations

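Transcripts of factors and kinases that act upstream of the immediate early genes had list medians near 0. In LM8 14 of 32 kept genes were lower and 18 higher, with a median of 0.022, and in A375M 22 of 34 were lower, 7 higher and 5 identical, with a median of -0.031. Over all kept genes 46.0% were lower and 53.8% higher in LM8. In A375M 40.3% of all kept genes were lower, 29.0% higher and 30.8% identical. The list counts were not tested against these shares. No gene of that list was past 1.5-fold in either line on its brightest probe set. In LM8 dimmer probe sets of Crebbp and Creb1 differed by as much as -0.94 and -0.65. Basic zipper genes whose products can pair with FOS or JUN, such as the ATF, MAF and CEBP families, had a median of -0.0030 over 19 kept genes in LM8, 10 lower and 9 higher, and -0.026 over 18 in A375M, 10 lower and 5 higher.

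Genes known as MYC targets, among them nucleolar and polyamine synthesis genes, lay close to 0 as lists. In LM8 7 of 17 kept genes were lower and 10 higher, with a median of 0.0023, and in A375M 4 of 16 were lower and 11 higher, with a median of 0.029. Over all kept genes 53.8% were higher in LM8 and 29.0% in A375M, and the list counts were not tested against these shares. No MYC target was past 1.5-fold in either line on its brightest probe set, though another Nolc1 probe set differed by 0.63 in LM8.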
